A study of Mus musculus with 7 samples.

Results

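Cholesterol in the adult brain is made locally, because lipoprotein cholesterol of the blood does not cross the intact blood-brain barrier. The set described here holds 28 genes of cholesterol synthesis, its transcriptional control, and sterol transport, out of 46333 gene symbols in the count files, and its members were taken from the files by gene symbol, from a list of pathway genes drawn up with earlier results of these data known. All 28 members were found and all 28 passed the filter on low counts, which kept 21542 genes. They were grouped by role into 8 mevalonate and isoprenoid steps, 3 steps that make squalene and turn it into lanosterol, 8 steps from lanosterol to cholesterol, 5 genes of SREBP control and 4 genes of intracellular transport, storage and efflux. The group of 3 is called squalene to lanosterol below.

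The mice were il4ra fl/fl.Syn cre, in which exons of the gene for the interleukin 4 receptor alpha chain are flanked by loxP sites and Cre recombinase is under the synapsin 1 promoter, a promoter of neurons. RNA came from neuron-enriched cells of whole brains of adult female littermates, prepared by magnetic depletion of microglia, oligodendrocytes and astrocytes. There were 3 cre+ libraries and 4 cre- libraries. Mice of both genotypes carried the floxed alleles, so the control mice differed from the others by Cre. The purification did not target endothelial cells. The study checked purity by flow cytometry, with an endothelial antibody among those used, and reported highly enriched neurons.

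In the pathway, acetyl-CoA units are joined and reduced to mevalonate, mevalonate is turned into isoprenoid units, these are joined to squalene, and squalene is closed to lanosterol and trimmed to cholesterol. When sterol in the endoplasmic reticulum runs low, SCAP carries the SREBP transcription factors to the Golgi apparatus, where they are cut and released to the nucleus. INSIG proteins hold the SCAP-SREBP complex back when sterol is plentiful. SREBP-2 is best known for driving the synthesis genes, and SREBP-1 for driving genes of fatty acid synthesis. Neurons are known to keep low synthesis in adult life and to take much of their cholesterol from astrocytes.

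SREBPs act at promoters together with NF-Y and Sp1, so the members' promoters were searched for 1 published form of the sterol regulatory element (TCACNCCAC), the NF-Y box (CCAAT) and the Sp1 box (GGGCGG) on both strands. The windows were the 250 bases before each gene start in the RefSeq promoter table (GRCm38.p6), which matched 23 of the 28 members and 16 of the 19 synthesis steps. It has no entry for Fdps, Fdft1, Sqle, Stard4 and Npc1. The 3 windows below were chosen to show the promoter with the only element match, that of the cytosolic HMG-CoA synthase, the window with the most CCAAT matches, and the synthesis gene with the largest difference between genotypes. Capitals mark matches, which read as ATTGG or CCGCCC where the match is on the other strand. By exact match each window occurred once on its chromosome in GRCm39, at chr13:120151637-120151886 on the plus strand for Hmgcs1, at chr5:114582080-114582329 on the plus strand for Mvk, and at chrX:8059752-8060001 on the minus strand for Ebp. All 3 windows lie before the start of the gene as the count files place it.

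Hmgcs1: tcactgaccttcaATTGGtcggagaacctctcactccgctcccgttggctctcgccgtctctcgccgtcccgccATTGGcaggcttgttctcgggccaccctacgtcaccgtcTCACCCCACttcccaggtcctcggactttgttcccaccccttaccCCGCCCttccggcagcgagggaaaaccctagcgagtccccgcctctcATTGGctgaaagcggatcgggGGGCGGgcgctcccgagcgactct
Mvk: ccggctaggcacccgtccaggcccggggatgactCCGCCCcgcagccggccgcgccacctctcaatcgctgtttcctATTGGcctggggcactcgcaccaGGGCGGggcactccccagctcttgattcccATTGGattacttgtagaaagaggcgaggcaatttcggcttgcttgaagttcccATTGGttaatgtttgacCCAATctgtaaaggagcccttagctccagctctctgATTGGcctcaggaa
Ebp: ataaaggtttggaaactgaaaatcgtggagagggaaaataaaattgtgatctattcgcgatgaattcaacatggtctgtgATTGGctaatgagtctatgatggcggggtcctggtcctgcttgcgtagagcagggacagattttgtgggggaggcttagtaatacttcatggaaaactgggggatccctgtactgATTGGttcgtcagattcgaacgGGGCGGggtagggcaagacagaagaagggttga

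The Hmgcs1 window held 1 match to TCACNCCAC, 3 to CCAAT and 2 to GGGCGG. The Mvk window held 5 CCAAT and 2 GGGCGG matches, and the Ebp window held 2 CCAAT matches and 1 GGGCGG match. A gene was counted where any of its windows held a match, and 5 members had more than 1 window. Among the 16 synthesis steps with a window, 15 (93.8%) had CCAAT, against 38.9% of the 15469 tested genes in the table and 37.5% of all 27025 genes in it. GGGCGG was found in 14 (87.5%), against 54.1% of tested genes and 35.4% of all genes. Counted by window, CCAAT was in 78.9% of the synthesis windows and 34% of those of tested genes, and GGGCGG in 78.9% and 48%. Both boxes stood in the same window in 13 of the 16 genes. TCACNCCAC was found in 1 (6.25%), Hmgcs1, against 1.25% of tested genes and 1.22% of all genes. No match of one motif overlapped a match of another in the members' windows. These matches are letters in a window, and no binding was measured.

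Il4ra, the targeted gene, is on chromosome 7 (125151292 to 125178646, GRCm39). Its CPM (the count relative to the TMM-adjusted total of its library, the level used throughout) was 29.5, 28.7 and 24.4 in cre+ mice and 20.03, 23.2, 29.6 and 22.4 in cre- mice. The genotypes overlapped, and the log2 fold change was 0.21 ± 0.15 (SE, edgeR adjusted p = 0.487). The count covers the whole gene, so it does not check the deletion of the floxed exons. The libraries held 68213223 to 94376841 counts. The lowest count of any member in any library was 629, for Idi1, and the highest was 19848, for Srebf2.

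The mean level of each list of markers of other cell types was higher in cre+, and for some lists the genotypes overlapped. On the log2 scale, relative to the cre- mean, the cre+ libraries averaged 0.64 for 12 endothelial markers, 0.67 for 10 mural markers, 0.97 for 8 fibroblast markers, 0.95 for 10 astrocyte markers, 0.58 for 10 oligodendrocyte markers, 0.93 for 10 microglial markers and 0.87 for 8 choroid plexus and ependymal markers. Neuron markers averaged -0.77 over 12 genes. Summed endothelial markers ran from 14092 to 20478 CPM in cre+ and from 9353 to 12971 CPM in cre-, without overlap. By DESeq2 9 of 12 were higher, where 3.71% of all genes were higher and 3.03% lower. Summed neuron markers ran from 1285 to 2415 CPM in cre+ and from 2347 to 3787 CPM in cre-, and 5 of 12 were lower by DESeq2. In every library the neuron sum was below the endothelial sum. Such sums depend on which genes a list holds, so they do not give the share of each cell type. Astrocyte markers summed to 443 to 664 CPM in cre+ and 247 to 492 CPM in cre-, with 4 of 10 higher by DESeq2. Mural markers summed to 614 to 870 CPM in cre+ and 409 to 589 CPM in cre-, and fibroblast markers to 184 to 644 CPM and 126 to 161 CPM. Oligodendrocyte markers summed to 1016 to 2364 CPM in cre+ and 871 to 1604 CPM in cre-, microglial markers to 765 to 1198 CPM and 192 to 1807 CPM, and choroid plexus and ependymal markers to 6490 to 19763 CPM and 4003 to 9362 CPM. By the same test 6 of 10 mural, 3 of 8 fibroblast, 3 of 10 oligodendrocyte, 0 of 10 microglial and 1 of 8 choroid plexus and ependymal markers were higher, and none of these was lower. The lowest mean of a neuron marker was that of Nefm at 42.1 CPM. No marker list held a gene with a mean of 0, and the lowest marker mean was that of the fibroblast gene Lum at 0.883 CPM. The part that these differences play in the values below was not tested, and in such bulk samples fewer cells of a type and less RNA per cell cannot be told apart. The counts do not separate cell types, so the CPM below are not those of neurons alone.

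Most of the 28 cholesterol genes differed little between genotypes. Their median log2 fold change, cre+ minus cre-, was 0.03, beside -0.04 over all 21542 genes, with 18 values above 0 and 10 below (9 above and 19 below with library totals in place of TMM). For 15 of 28 the estimate was under 0.1 in size. The values ran from -0.22 for Tm7sf2 to 0.56 for Srebf1. By edgeR's quasi-likelihood test with Benjamini-Hochberg adjustment 0 of 28 passed 0.05, where 0% of all genes passed and the lowest adjusted p of any gene was 0.0939. At an unadjusted p under 0.05 the same test gave 4 members higher in cre+ (Srebf1, Ebp, Stard4 and Abca1), where 10.2% of all genes were higher, and 0 lower, where 9.75% were lower. With library totals these counts were 2 higher and 2 lower. The median over all genes was then -0.16, so the shares above do not apply to these counts. DESeq2, the test of the study, called 2 members higher after adjustment (Srebf1 and Ebp), where 3.71% of all genes were called higher, and 0 lower, where 3.03% were called lower. The DESeq2 shares are over the 29539 genes with at least 1 count, which include genes that did not pass the filter on low counts. limma-voom called 0. The libraries of the genotypes did not overlap for 3 members that were higher (Ebp, Srebf1 and Stard4), where 8.94% of genes were higher without overlap, and for 0 that were lower, where the share of genes was 9.72%.

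**Figure D1:**
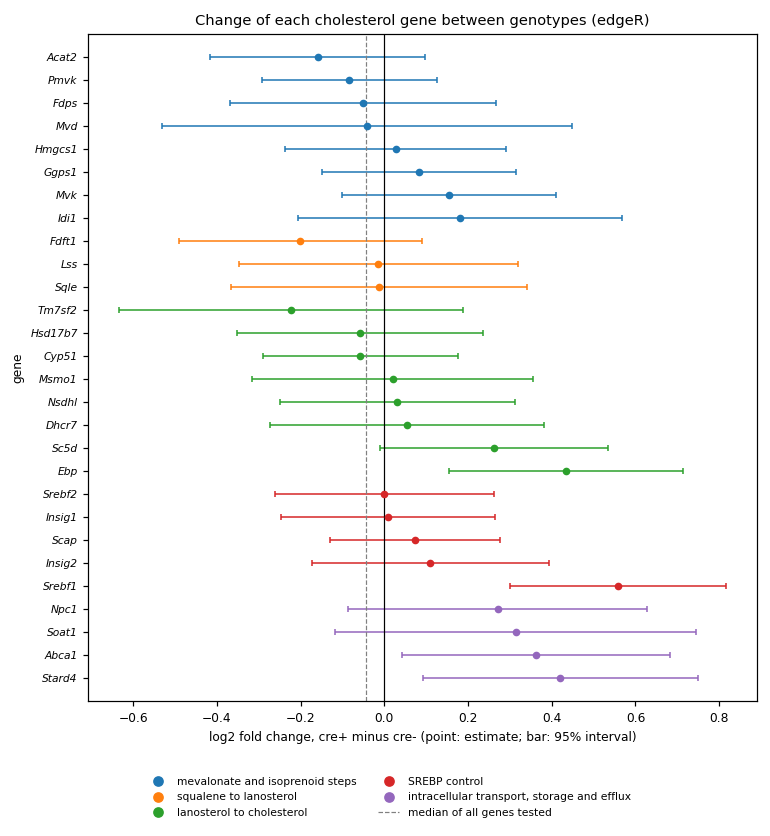
Log2 fold change of each of the 28 genes (cre+ minus cre-, edgeR), with 95% intervals, coloured by role; the dashed line is the median of all tested genes, -0.04. Intervals of 4 genes (Ebp, Srebf1, Abca1 and Stard4) lie wholly above 0, and none lies wholly below it.

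Variation over the 7 libraries was a little below that of genes at similar CPM. It was taken with the genotypes pooled, so it includes any difference between them. The SD of log2 CPM over the 7 libraries had a median of 0.18 over the members, beside 0.21 over the 10136 genes whose mean CPM lay in the members' range (11.2 to 200 CPM) and 0.40 over all tested genes. The median size of the log2 fold change was 0.08 over the members and 0.21 over the genes in that range. Among the genes in that range 16.1% had an unadjusted edgeR p under 0.05 and were higher and 12.5% were lower, beside 14.3% and 0% of the members. No share of DESeq2 calls or of genotypes without overlap is given for that range.

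Per kb of exon of the canonical transcript, the highest cre- levels among the members were those of Fdps (39.96 CPM per kb), Srebf2 (39.4) and Hmgcs1 (34.3), and the lowest was that of Soat1 (1.54). Srebf1 stood at 16.3 CPM per kb in cre- and 24.0 in cre+, below Srebf2 in both genotypes.

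**Figure D2:**
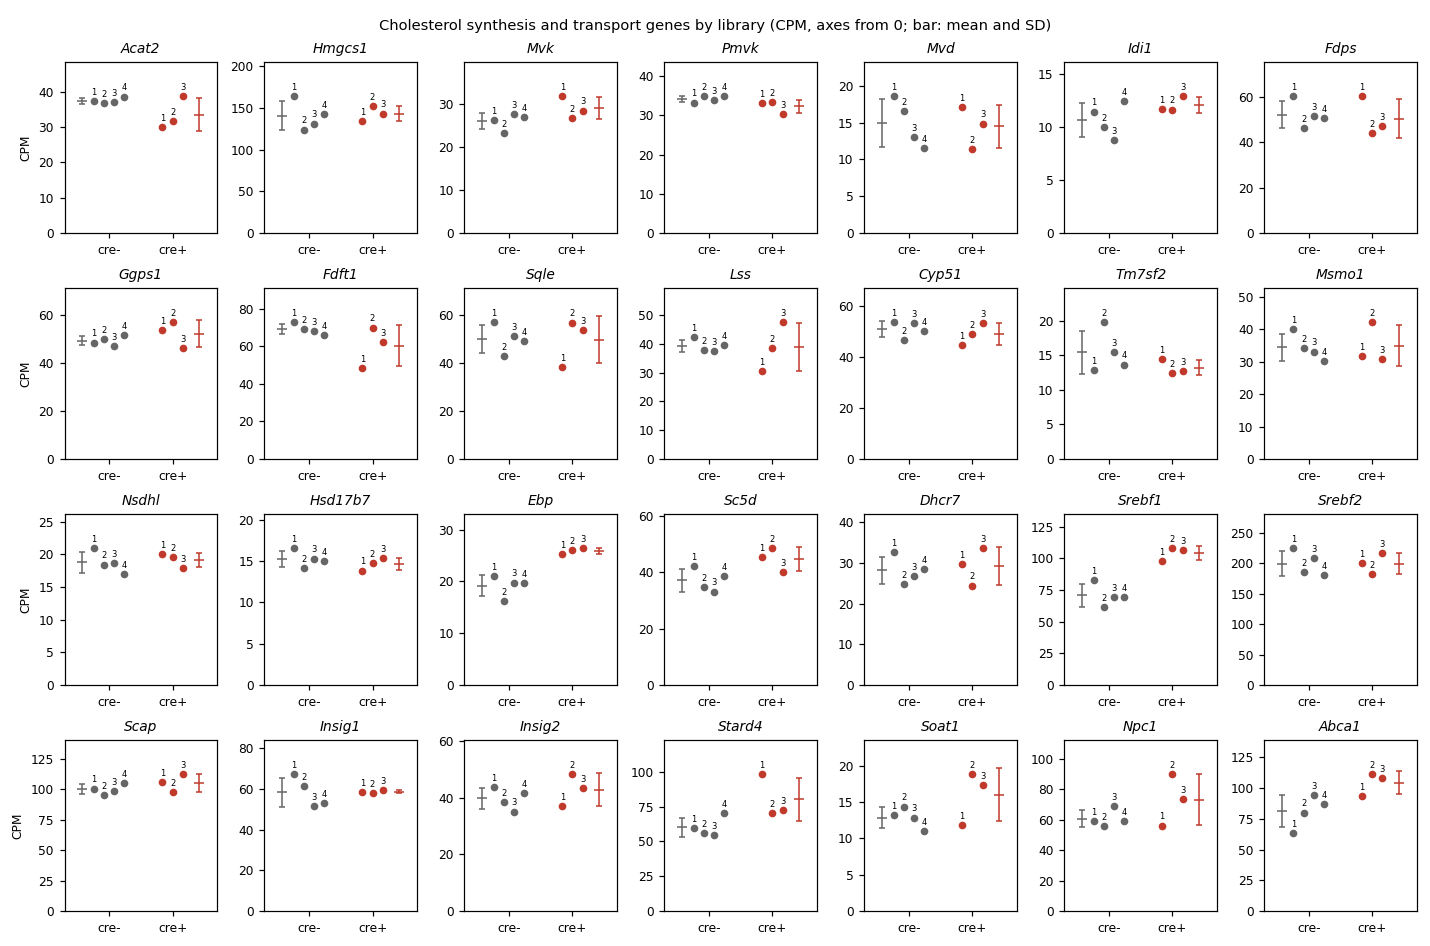
CPM of each of the 28 genes in each library, with axes from 0; grey points are the 4 cre- libraries and red points the 3 cre+ libraries, numbered by replicate, and bars give the mean and SD. The genotypes are separate for Ebp, Srebf1 and Stard4 and overlap in the other 25 panels.

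The mevalonate and isoprenoid steps gave 4 values above and 4 below 0, with a median log2 fold change of -0.01, and 0 of 8 passed any of the tests. Hmgcs1, the cytosolic HMG-CoA synthase that condenses acetoacetyl-CoA with acetyl-CoA, had 134, 152 and 143 CPM in cre+ and 164, 124, 131 and 142 CPM in cre-. The cre+ libraries lay inside the range of the cre- libraries, and the log2 fold change was 0.03 ± 0.12 (95% interval -0.24 to 0.29). Acat2, the cytosolic thiolase that supplies acetoacetyl-CoA, had 29.98, 31.8 and 38.8 CPM in cre+ and 37.4, 36.7, 37.0 and 38.7 CPM in cre-. Here 2 cre+ libraries lay below all cre- libraries and the third lay above them, with a log2 fold change of -0.16 ± 0.11 (-0.09 without cre+ replicate 1 and -0.28 without cre+ replicate 3).

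Mvk, mevalonate kinase, and Pmvk, phosphomevalonate kinase, act in sequence on mevalonate. Mvk had 31.9, 26.8 and 28.6 CPM in cre+ and 26.3, 23.4, 27.8 and 27.1 CPM in cre- (0.16 ± 0.11, and 0.08 without cre+ replicate 1). Pmvk had 33.1, 33.3 and 30.4 CPM in cre+ and 33.2, 34.9, 33.9 and 34.8 CPM in cre- (-0.08 ± 0.09). The kinases thus had estimates on opposite sides of 0, both with overlap between genotypes. Mvd, the decarboxylase that makes isopentenyl diphosphate, ran from 11.4 to 17.2 CPM in cre+ and from 11.5 to 18.6 CPM in cre-. Idi1, the isomerase of that product, averaged 12.05 ± 0.72 CPM over the 3 cre+ libraries (SD) and 10.6 ± 1.61 CPM over the 4 cre- libraries. Fdps, which makes farnesyl diphosphate, had 60.2, 44.0 and 47.0 CPM in cre+ and 60.3, 46.1, 51.6 and 50.8 CPM in cre-. For Fdps the first library of each genotype was the highest of its group. Ggps1, which extends farnesyl diphosphate to the geranylgeranyl group used on proteins, had a log2 fold change of 0.08 ± 0.10.

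All 3 genes of the squalene to lanosterol group, which includes the synthesis of squalene, had estimates below 0, with a median of -0.01. Of these, 0 of 3 passed any of the tests. Fdft1, squalene synthase, is the first step that commits farnesyl diphosphate to sterols. It had 48.5, 70.1 and 62.2 CPM in cre+ and 72.9, 69.5, 68.3 and 66.3 CPM in cre-, a log2 fold change of -0.20 ± 0.13. Sqle, the squalene epoxidase, a known control point of the pathway, had 38.4, 56.9 and 53.9 CPM in cre+ and 57.0, 43.1, 51.4 and 49.2 CPM in cre-. Lss, lanosterol synthase, had 30.7, 38.5 and 47.5 CPM in cre+ and 42.2, 37.8, 37.5 and 39.6 CPM in cre-.

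For all 3 genes cre+ replicate 1 was the lowest of the 7 libraries, at -0.41 for the group mean on the log2 scale relative to cre-, where cre+ replicates 2 and 3 were at 0.06 and 0.08. Without that library the log2 fold changes were -0.07 for Fdft1, 0.14 for Sqle and 0.13 for Lss. Without cre+ replicate 2 that of Fdft1 was -0.32. The same library had the highest endothelial level (0.998) and the lowest neuron level (-1.44) of the 7, and whether this bears on the 3 genes was not tested. By the reference annotation 34.1% of Fdft1's exonic bases lie opposite Ctsb and 16.7% of Sqle's lie opposite Washc5. Whether strand was used in counting is not stated, so reads of these pairs cannot be told apart.

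**Figure D3:**
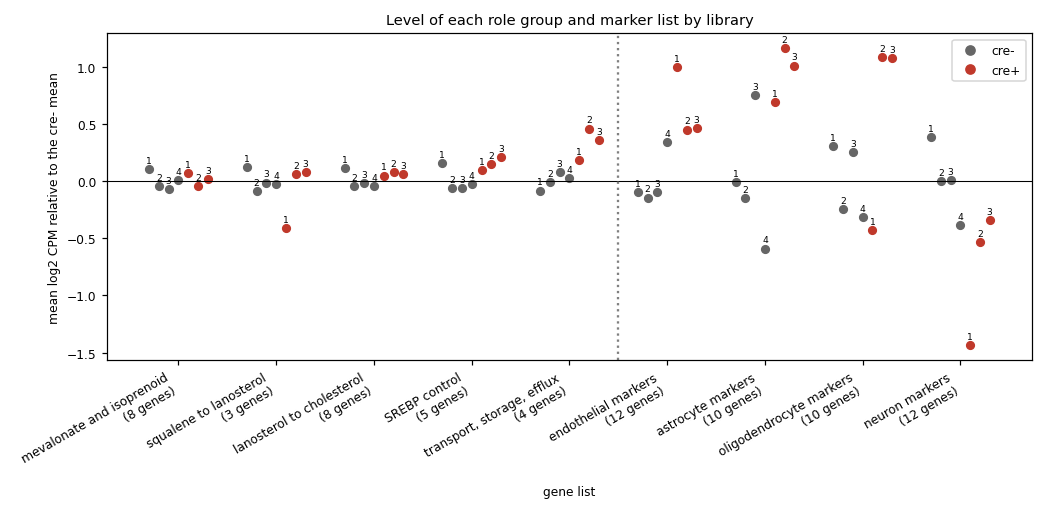
Mean log2 CPM of each role group and of 4 marker lists in each library, relative to the cre- mean (y axis, log2 units); grey points are cre- and red points cre+, numbered by replicate. The squalene to lanosterol group of cre+ replicate 1 stands at -0.41, the 3 cre+ libraries of the transport group stand between 0.18 and 0.46, and the neuron markers of cre+ replicate 1 stand at -1.44.

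The steps from lanosterol to cholesterol had a median log2 fold change of 0.03, with 5 values above and 3 below 0. Ebp, the sterol isomerase that shifts a double bond within the ring system, was the 1 synthesis gene of 19 whose genotypes did not overlap. Of all genes 8.94% were higher without overlap and 9.72% lower. It had 25.3, 26.0 and 26.4 CPM in cre+ and 21.0, 16.2, 19.8 and 19.8 CPM in cre-. Every cre+ library was above every cre- library, by a mean of 1.35-fold (95% interval 1.11 to 1.64). On the log2 scale Ebp differed by 0.43 ± 0.12, and the adjusted p was 0.12 in edgeR, 0.0188 in DESeq2 and 0.114 in limma-voom. The exact two-sided permutation test over every assignment of the 7 libraries to groups of 3 and 4 gave p = 0.0286, the smallest value it can give. For groups that do not overlap, this p largely restates their separation. Ebp kept its DESeq2 call in 2 of the 7 fits without 1 library. It lost the call without cre+ replicate 1 (adjusted p = 0.101), cre+ replicate 2 (0.126), cre+ replicate 3 (0.102), cre- replicate 2 (0.0557) and cre- replicate 3 (0.0915).

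Sc5d, the desaturase that acts next to Ebp's step, had 45.3, 48.4 and 39.9 CPM in cre+ and 42.1, 34.7, 33.1 and 38.7 CPM in cre-. It had the second largest estimate of the 19 synthesis steps, 0.26 ± 0.12, with an edgeR adjusted p of 0.265. Dhcr7, the reductase of 7-dehydrocholesterol, had 29.8, 24.5 and 33.6 CPM in cre+ and 32.7, 24.9, 26.7 and 28.5 CPM in cre- (0.05 ± 0.14). So of the 3 late steps in sequence only Ebp's genotypes were separate, and whether its change differs from those of its neighbours was not tested.

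The earlier steps of this group, which remove methyl groups from lanosterol, gave estimates on both sides of 0. Cyp51, the lanosterol demethylase, had 44.7, 49.0 and 53.5 CPM in cre+ and 53.8, 46.6, 53.4 and 50.4 CPM in cre- (-0.06 ± 0.10), and 24.2% of its exonic bases lie opposite Akap9. Tm7sf2, a sterol reductase, had 14.5, 12.4 and 12.8 CPM in cre+ and 12.9, 19.8, 15.5 and 13.7 CPM in cre-, with -0.22 ± 0.18. The highest value of Tm7sf2 was that of cre- replicate 2, without which its log2 fold change was -0.08. Msmo1 and Nsdhl, which act on the last methyl groups to be removed, had log2 fold changes of 0.02 ± 0.15 and 0.03 ± 0.12. Hsd17b7, a ketosteroid reductase of the same part of the pathway, had -0.06 ± 0.13.

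Of the 5 genes of SREBP control, all had estimates at or above 0, with a median of 0.07, but with library totals in place of TMM 4 of the 5 (all but Srebf1) were below 0. Of the 5, 1 was called higher by DESeq2, where 3.71% of all genes were called higher. Srebf1, which encodes SREBP-1 and is a known target of the liver X receptors, had 98.1, 108 and 107 CPM in cre+ and 83.0, 61.2, 69.6 and 69.3 CPM in cre-. The lowest cre+ library was above the highest cre- library, and the mean difference was 1.47-fold (95% interval 1.23 to 1.76). The log2 fold change, 0.56 ± 0.11, was the largest of the 28, and the adjusted p was 0.0939 in edgeR, 0.002 in DESeq2 and 0.0837 in limma-voom. The exact two-sided permutation test again gave its smallest value, p = 0.0286, which again largely restates the separation. Srebf1 kept its DESeq2 call in all 7 fits without 1 library, with adjusted p between 2.1e-05 and 0.0394. Counts are per gene, so the SREBP-1a and SREBP-1c transcripts, which start at different promoters, were not separated.

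Srebf2, the gene of SREBP-2, had 200.5, 183 and 217 CPM in cre+ and 225, 186, 209 and 180 CPM in cre-. The cre+ libraries lay inside the cre- range, and the 95% interval of the fold was 0.83 to 1.20. The upper bound for Srebf2 lies below the lower bound of 1.23 for Srebf1, and the difference between these genes was not tested. Scap, the carrier of the SREBPs, had 106, 97.3 and 112 CPM in cre+ and 101, 95.3, 98.3 and 105 CPM in cre- (0.07 ± 0.09). Insig1, itself a known SREBP target and the brake on SCAP, had 58.6, 58.1 and 59.3 CPM in cre+ and 67.2, 61.3, 51.7 and 53.0 CPM in cre-. The cre+ libraries of Insig1 lay close together, inside the cre- range, with a log2 fold change of 0.01 ± 0.11. Insig2, a second such brake, had 37.0, 48.2 and 43.4 CPM in cre+ and 43.8, 38.6, 35.1 and 41.5 CPM in cre- (0.11 ± 0.12).

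The 4 transport genes had the highest median of the role groups, 0.34, with all 4 estimates between 0.27 and 0.42. At an unadjusted p under 0.05 2 of 4 were higher in edgeR, where 10.2% of all genes and 16.1% of genes in the members' CPM range were higher, and 0 of 4 passed an adjusted test. Stard4, a soluble carrier that moves cholesterol between membranes, had 98.1, 70.5 and 72.4 CPM in cre+ and 59.5, 55.7, 54.9 and 70.0 CPM in cre-. The groups were separate by a narrow margin, between cre+ replicate 2 and cre- replicate 4, and the log2 fold change was 0.42 ± 0.14 (edgeR adjusted p = 0.171, DESeq2 adjusted p = 0.0867). The exact permutation test gave p = 0.0571. Without cre+ replicate 1, the highest library, the log2 fold change was 0.25 and the gene was no longer past an unadjusted p of 0.05 in edgeR. In DESeq2 the adjusted p of Stard4 was 0.041 without cre- replicate 4 and between 0.0962 and 0.399 in the other 6 fits without 1 library. Its highest library in each genotype, cre+ replicate 1 and cre- replicate 4, was also the one with the highest endothelial level of that genotype. The other transport genes, Abca1, Soat1 and Npc1, were instead lowest in replicate 1 among the cre+ libraries. Whether the endothelial level bears on Stard4 was not tested.

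Abca1, the transporter that loads cellular cholesterol onto apolipoproteins and another known liver X receptor target, had 93.4, 111 and 108 CPM in cre+ and 63.3, 80.0, 93.9 and 87.1 CPM in cre-. The lowest cre+ library, replicate 1, was just below the highest cre- library, replicate 3, and the log2 fold change was 0.36 ± 0.14 (edgeR adjusted p = 0.204). It was no longer past an unadjusted p of 0.05 without cre+ replicate 2 (0.32), cre+ replicate 3 (0.34) or cre- replicate 2 (0.36). Soat1, which esterifies cholesterol for storage, had 11.9, 18.8 and 17.4 CPM in cre+ and 13.3, 14.4, 12.9 and 11.0 CPM in cre-. Npc1, which exports cholesterol from lysosomes, had 56.2, 89.9 and 73.7 CPM in cre+ and 59.1, 56.0, 68.9 and 59.0 CPM in cre-. For both genes cre+ replicates 2 and 3 lay above all cre- libraries while cre+ replicate 1 lay among them. Their log2 fold changes were 0.31 ± 0.19 and 0.27 ± 0.16, and without cre+ replicate 2 they were 0.18 and 0.10. Without cre+ replicate 1 they were 0.49 and 0.42. For Npc1, 16.4% of the exonic bases lie opposite Rmc1.

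Further genes of the pathway that are not among the 28 were read from 5 lists with 48 genes, of which 47 were tested. In edgeR 0 passed the adjusted test, and at an unadjusted p under 0.05 8 were higher and 4 lower, beside 10.2% and 9.75% of all genes. DESeq2 called 1 higher and 2 lower, beside 3.71% and 3.03% of all genes. Their median log2 fold change was 0.08. The 3 genes with the smallest p of each list are described below.

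**Figure D4:**
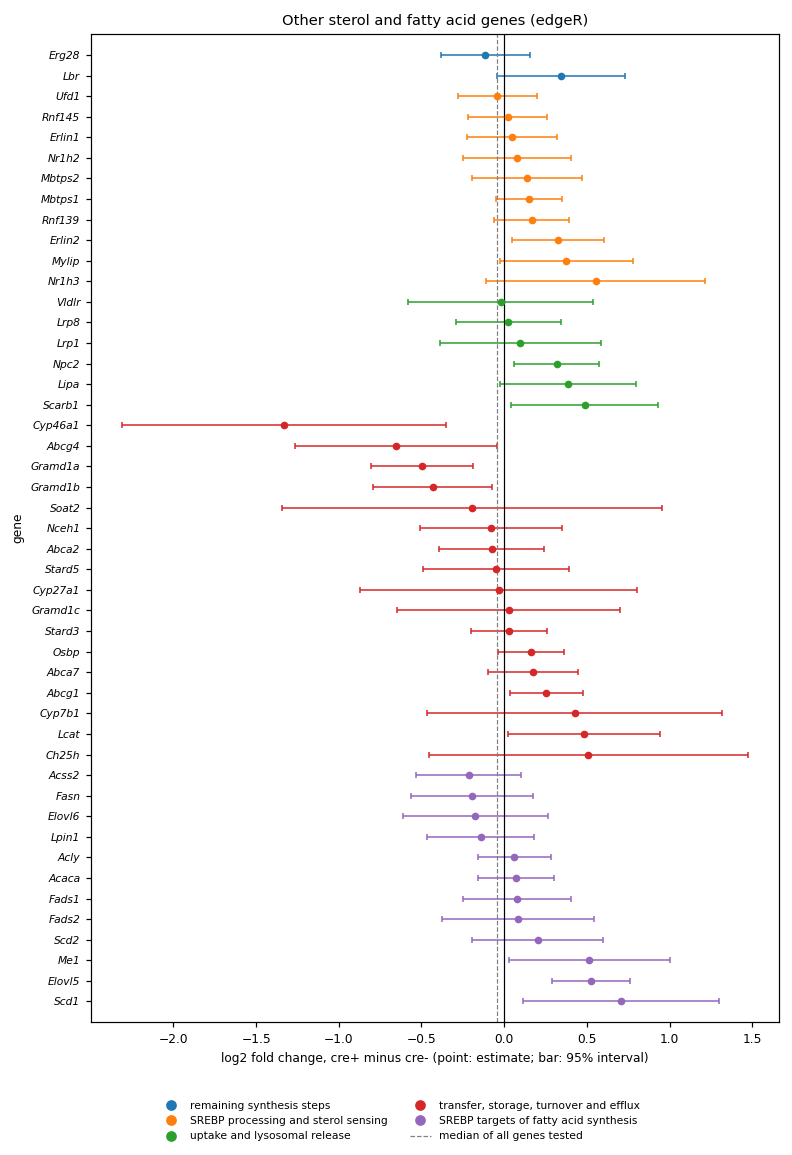
Log2 fold change (cre+ minus cre-, edgeR) with 95% intervals of the 47 tested sterol and fatty acid genes outside the set of 28, coloured by list; the dashed line is the median of all tested genes. Cyp46a1 stands lowest at -1.33 and Scd1 highest at 0.71.

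The fatty acid list, known SREBP-1 targets, gave 3 of 12 higher and 0 lower at an unadjusted p under 0.05, beside 10.2% and 9.75% of all genes. Elovl5, an elongase of polyunsaturated fatty acids, had 119, 110 and 123 CPM in cre+ and 77.1, 74.6, 80.3 and 93.6 CPM in cre-, without overlap, with a log2 fold change of 0.53 ± 0.10 and adjusted p of 0.0939 in edgeR and 0.00139 in DESeq2. Scd1, the desaturase that makes oleate, had 29.5, 65.5 and 50.7 CPM in cre+ and 37.4, 29.4, 22.6 and 29.7 CPM in cre-, where cre+ replicate 1 lay among the cre- libraries (0.71 ± 0.26, and 0.43 without cre+ replicate 2). Me1, the malic enzyme that supplies NADPH, had 42.0, 43.2 and 29.1 CPM in cre+ and 34.8, 21.6, 20.8 and 29.3 CPM in cre- (0.52 ± 0.21). The list's median was 0.07, and it had 8 estimates above and 4 below 0.

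Among 10 genes of SREBP processing and sterol sensing, 9 had estimates above 0, with a median of 0.14, and 1 was higher at an unadjusted p under 0.05, beside 10.2% of all genes. That gene was Erlin2, which encodes a membrane protein of sterol-regulated protein degradation. It had 85.1, 111 and 91.4 CPM in cre+ and 84.2, 68.2, 72.7 and 80.6 CPM in cre-, without overlap but by a narrow margin (0.33 ± 0.12, DESeq2 adjusted p = 0.113). Mylip, a ligase that marks lipoprotein receptors for degradation, had a log2 fold change of 0.38 ± 0.18. Nr1h3, the gene of liver X receptor alpha, had 10.3, 6.09 and 6.04 CPM in cre+ and 5.10, 6.72, 5.01 and 3.59 CPM in cre-, where cre+ replicate 1 stood highest and the other two lay within the cre- range (0.55 ± 0.29). Without cre+ replicate 1 its log2 fold change was 0.25, and without cre+ replicate 2 that of Erlin2 was 0.21. Of the synthesis steps outside the 28, Lbr, a sterol reductase of the nuclear envelope, had 0.35 ± 0.17 and Erg28, a scaffold of the sterol enzymes, had -0.11 ± 0.12. Lbr was highest in cre+ replicate 1, at 115 CPM, and without that library its log2 fold change was 0.15. As for Stard4, the highest library of Lbr in each genotype was the one with the highest endothelial level of that genotype. Nr1h3 was also highest in cre+ replicate 1, but its lowest cre- library was replicate 4. Whether the endothelial level bears on these genes was not tested.

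Of 6 genes of uptake and lysosomal release, 2 were higher at an unadjusted p under 0.05, beside 10.2% of all genes. Npc2, the partner of NPC1 in lysosomal export, had 131, 167 and 138 CPM in cre+ and 120, 106, 115 and 125 CPM in cre-, without overlap, with 0.32 ± 0.11 (DESeq2 adjusted p = 0.0866). Scarb1, a lipoprotein receptor, had 277, 157 and 181 CPM in cre+ and 139, 133, 139 and 175 CPM in cre-, so that cre- replicate 4 was above cre+ replicate 2 (0.49 ± 0.19). Lipa, the lysosomal acid lipase, had 0.39 ± 0.18. Without cre+ replicate 1 the log2 fold changes were 0.20 for Scarb1 and 0.24 for Lipa, and without cre+ replicate 2 that of Npc2 was 0.21. For Scarb1 and Lipa the highest library of each genotype was also the one with the highest endothelial level of that genotype. For Npc2 this held in cre- but not in cre+, where replicate 2 was highest. Whether the endothelial level bears on these genes was not tested.

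Of 17 genes of transfer, storage, turnover and efflux, 2 were higher and 4 lower at an unadjusted p under 0.05, beside 10.2% and 9.75% of all genes. The list had 8 estimates above and 9 below 0, with a median of -0.03. Its 3 genes with the smallest p were all lower, so the genes described here do not stand for the list. Cyp46a1, the neuronal cholesterol hydroxylase through which the brain clears cholesterol, had 11.3, 38.3 and 34.96 CPM in cre+ and 90.3, 78.5, 74.7 and 39.9 CPM in cre-. All cre+ libraries were below all cre- libraries, with a log2 fold change of -1.33 ± 0.43 and adjusted p of 0.155 in edgeR and 0.0149 in DESeq2. The lowest library in each genotype was also the one with the lowest neuron marker level of that genotype. Gramd1a, a sterol carrier between plasma membrane and endoplasmic reticulum, had 232, 188 and 234 CPM in cre+ and 254, 322, 343 and 309.9 CPM in cre-, without overlap (-0.49 ± 0.14, DESeq2 adjusted p = 0.0178). Gramd1b, a related carrier, had 57.3, 66.6 and 57.5 CPM in cre+ and 94.8, 95.1, 73.3 and 63.1 CPM in cre- (-0.43 ± 0.16). The part of the lower neuron markers in these values was not tested.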

How the data were processed

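Per the labels and the study's methods, poly(A) libraries of 3 cre+ and 4 cre- mice were sequenced as paired reads. The authors used fastp, FastQC, STAR with GRCm39, SAMtools, StringTie and DESeq2, as the submitters' processing notes list them. Their versions, the annotation release and the strand setting were not given in the sources used here. As raw values the authors deposited whole-number counts per gene (46382 rows per file), and beside them a normalized signal, the raw count divided by 1 factor per library, which was not tested. Header codes are not shared between genotypes, so a batch they might mark and the genotype cannot be told apart.

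Of repeated symbols the first row was kept (49 rows dropped). Counts were tested with edgeR 4.0.16 (TMM, filterByExpr, robust quasi-likelihood F-test, genotype only, Benjamini-Hochberg over 21542 genes, threshold 0.05) in R 4.3.3. DESeq2 1.42.0 on 29539 genes with at least 1 count, and limma 3.58.1 (voom), were alternatives. Single-gene permutation tests used log2 CPM with a prior count of 2. Scripts were tested on simulated data. Exon lengths are of canonical GENCODE transcripts (GRCm39). Marker levels are means over a list of log2 CPM minus the cre- mean.

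Named genes were Il4ra, all 28 members and, of each further list, the 3 with the smallest p. The members and lists were chosen with earlier results of these data known. Some further genes of the pathway are not reported here. The mice were littermates taken as replicates.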

Additional observations from a re-analysis of the deposited data

Results flagged for a closer look

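In a scan of 42 named genes, over the 4 cre- libraries, 2 genes had 1 library far from the others by Dixon's ratio of the gap to the range, and chance alone flags about 1 in 20 groups. Scarb1 was at 174.8 CPM in cre- replicate 4, where the nearest other cre- library was at 139 CPM (ratio 0.84). Lipa was at 96.4 CPM in cre- replicate 4, where the nearest was at 67.5 CPM (ratio 0.91). Neither gene is among the 28.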

How the results depend on the processing

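Adjusted edgeR calls stayed at 0 members under every normalization, filter, block and left-out library tried, and at 0 in limma-voom, while DESeq2 gave 2 higher. In DESeq2 the count of 2 higher members became 0 with the replicate number as a block (adjusted p = 0.0633 for Srebf1 and 0.198 for Ebp) and 1 to 3 on leaving out 1 library. With library totals in place of TMM, the median over all genes moved by -0.12, to -0.16, and that of the members to -0.085, which is 0.08 above all genes, beside 0.07 with TMM. The unadjusted edgeR counts were then 2 higher (Ebp and Srebf1) and 2 lower (Acat2 and Fdft1), and 3 members were lower without overlap (Pmvk, Fdft1 and Hsd17b7). Leaving out 1 library gave 0 to 1 lower (Fdft1 without cre+ replicate 2, Acat2 without cre+ replicate 3) and a member median of 0.0097 to 0.091, the latter without cre- replicate 1. With the replicate block edgeR still gave 4 higher and 0 lower at an unadjusted p under 0.05. The shares of all genes given earlier are those with TMM, all 7 libraries and no block, so they do not apply to these counts. The numbers were not taken to pair the libraries: deviations from the group means correlated between same-numbered libraries at -0.027, -0.0036 and 0.088.

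Of 645 alternatives for 43 single genes, 598 kept direction and side of the threshold, and 14 of the 28 members never changed sign. With library totals the sign turned for Hmgcs1 (-0.086), Ggps1 (-0.036), Msmo1 (-0.092), Nsdhl (-0.085), Dhcr7 (-0.062), Srebf2 (-0.12), Scap (-0.045), Insig1 (-0.11) and Insig2 (-0.0033). The block turned Msmo1 (-0.047), Nsdhl (-0.013), Srebf2 (-0.046) and Insig1 (-0.025). Upper-quartile factors turned Srebf2 (-0.018) and Insig1 (-0.0088), and a mean CPM of at least 1 turned Srebf2 (-0.016) and Insig1 (-0.0070). Leaving out 1 library turned the sign of 11 members, whose log2 fold changes then ran from -0.029 to 0.11 for Hmgcs1, -0.19 to 0.10 for Mvd, -0.20 to 0.038 for Fdps, -0.12 to 0.14 for Sqle, -0.18 to 0.13 for Lss, -0.12 to 0.00072 for Cyp51, -0.14 to 0.10 for Msmo1, -0.015 to 0.092 for Nsdhl, -0.056 to 0.17 for Dhcr7, -0.061 to 0.065 for Srebf2 and -0.045 to 0.089 for Insig1. Counting error is small at these depths, and 3 against 4 libraries limit what can be called.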
